A study of Bos taurus with 81 samples.

Results

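The regions described here are open sites inside H3K27me3 domains of the bovine blastocyst: stretches of at least 200 bp on chromosomes 1 to 29 that all 3 ATAC lists and both H3K27me3 lists of the inner cell mass (ICM), or of the trophectoderm (TE), covered at once. They were chosen by the ATAC and H3K27me3 lists of these lineages, so their openness and H3K27me3 there are the rule and not a result. ICM had 10842 such members among 89701 open stretches, and TE had 11380 among 83298. Merging the members of the lineages where they shared a base gave 16005 loci, out of 113175 stretches open in either lineage. Of these loci, 5106 were found in ICM only, 5458 in TE only and 5441 in both.

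H3K27me3 is laid down by Polycomb repressive complex 2, spreads over domains of many nucleosomes and marks genes that are held silent. Sites that stay open inside such domains are often CpG-rich promoters, which can also carry H3K4me3, the mark of promoters, in the state called bivalent. H3K27ac, the mark of active promoters and enhancers, sits on the same lysine as H3K27me3, so one histone tail cannot hold both, and H3K9me3 marks heterochromatin of another kind. The ICM gives rise to the fetus and the TE to the fetal part of the placenta.

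CUT&Tag for H3K4me3, H3K27ac, H3K27me3 and H3K9me3 and ATAC-seq, which reads open chromatin, had been done on oocytes and in vitro produced embryos from slaughterhouse ovaries and frozen semen. The groups were germinal vesicle oocytes (GV), 2-cell embryos at 32 h after insemination (2C), 4-cell embryos at 44 h (4C), 8-cell embryos at 56 h (8C), 8-cell embryos of the same age grown with α-amanitin at 50 µg/ml, which blocks transcription (8A), morulae at 122 h (MO), blastocysts at 172 h (BL), and ICM and TE. ICM came from immunosurgery, which kills the outer cells, and TE was cut off with a blade; zonae had been removed with pronase. Each mark had 2 libraries in each group and ATAC had 3 libraries each in BL, ICM and TE, each made from pooled cells, and nothing in the labels says which libraries came from separate collections, so the spread between libraries, and a p-value resting on it, may be technical. Because a list pools many cells, a locus that was open and carried H3K27me3 in the same cells and one that did so in different cells cannot be told apart. Carry-over of cells of the other lineage was not tested. Depth is unknown; the lists of ICM and TE covered 80.9 to 97.5 Mb (ATAC), 246 to 278 Mb (H3K27me3), 37.7 to 46.7 Mb (H3K4me3), 57.5 to 98.2 Mb (H3K27ac) and 96.6 to 154 Mb (H3K9me3) of the autosomes, and their length may follow depth. A region was said to hold a mark in a library where peaks covered at least 50% of its bases.

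Loci that show the range of the set are given here by position (ARS-UCD1.2, no annotation of that build was used, so genes are not named); they are the longest ones, or those in the longest domains, of their class. The longest ICM-only locus was chr7:106783351-106787450 (4100 bp). It lay in an ICM domain of 10800 bp, and was held by H3K4me3 in 18 of 18 libraries from GV to TE and by H3K27ac in 4 of 18, those of 8C and 8A. In TE, H3K27me3 covered 89% of this locus in library 1 and 0% in library 2, and the ATAC lists covered 97.6 to 100%. The longest TE-only locus, chr6:114553851-114557750 (3900 bp), was held by H3K27me3 in all 18 libraries of that mark. H3K9me3 held it in 16 of 18, in all but the GV pair, and H3K4me3 was at 0% of it in MO, BL, ICM and TE. Among loci of both lineages, chr8:73358001-73362250 (4250 bp) had H3K4me3 over 84.7 and 95.3% of its bases in the ICM libraries and over 94.1 and 45.9% in the TE libraries. H3K27ac there covered 92.9 and 94.1% in 8C but 25.9 and 40.0% in ICM and 0% in both TE libraries. H3K27me3 there covered all of it in GV, none of it from 2C to 8A, and 100 and 75.3% of it in MO.

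A few loci were covered by everything. The 2 longest loci of both lineages, chr16:820601-829800 (9200 bp) and chr27:6219451-6226000 (6550 bp), were held in all 81 libraries, that is by each of the 4 marks at each stage and by every ATAC list. Among members, 99 of ICM (0.913%) and 83 of TE (0.729%) were held by H3K9me3 in all 18 of its libraries, against 0.165 and 0.166% of all open stretches. Leaving out the members held by H3K9me3 throughout left 10743 members of ICM and 11297 of TE.

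Members were not unusual in size. Their median length was 500 bp in both lineages, where all open stretches had medians of 500 bp (ICM) and 550 bp (TE). The loci of both lineages were longer, with a median of 750 bp against 400 bp in either single class. Just below the threshold, at 150 bp, lay 382 further stretches in ICM and 377 in TE, and 514 and 471 members had the shortest admitted length of 200 bp. The ATAC peaks that held members ranked a little above the middle of their lists, with median score percentiles of 58.2 to 64.9 over the 6 libraries. H3K27me3 of both libraries covered 8.58% of the autosomes in ICM and 9.61% in TE. It covered 11.6 and 11.9% of the open bases, while 3.23 and 2.94% of the bases under H3K27me3 were open.

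In their own lineage the members held H3K4me3 about as often as open chromatin at large and H3K27ac far less often. All open stretches, the background used throughout, include the members. H3K4me3 was held by 26.2 and 27.1% of ICM members in the ICM libraries, and by 39.3 and 33.4% of TE members in the TE libraries. Among all open stretches the means were 25.4% ± 0.284 (SD, n = 2 libraries) and 34.0% ± 2.00 (SD, n = 2). H3K27ac was held by 13.7 and 9.54% of ICM members, where all open stretches gave 55.9% ± 3.71 (SD, n = 2), and by 4.33 and 4.92% of TE members, where they gave 44.5% ± 1.54 (SD, n = 2). Every library's value at the members was thus below every value for all open stretches. In both libraries, H3K4me3 was held by 2487 ICM members (22.9%; background 22.8%) and 3557 TE members (31.3%; background 30.5%), and H3K27ac by 816 (7.53%; 50.3%) and 301 (2.64%; 38.8%). Groups of 2 libraries cannot reach an exact permutation p below 0.333, so these differences were compared with the spread between libraries only. Where every base had to be covered for a mark to count as held, H3K4me3 was held by 14.6% (ICM) and 23.0% (TE) of members and H3K27ac by 3.92 and 1.30%. With lists shortened by score to 37.7 Mb, H3K4me3 was held by 26.1% (ICM) and 23.2% (TE) of members. All open stretches then had 25.0 and 25.2%. At 43.4 Mb, H3K27ac was held by 1.31 and 1.88% of members, against 24.2 and 33.1%. The order of the lineages among members was thus the opposite of that in the full lists for both marks.

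H3K4me3 without H3K27ac, and neither mark, were the combinations that members showed more often than open chromatin at large. In ICM, 1873 members (17.3%) held H3K4me3 in both libraries and H3K27ac in neither, against 3.69% of all open stretches. In TE they were 3250 (28.6%), against 9.42%. H3K4me3 and H3K27ac together, in both libraries of each, were found at 354 ICM members (3.27%; 17.6% of all open stretches) and at 144 TE members (1.27%; 17.9%). H3K27ac without H3K4me3 was held by 393 ICM members (3.62%; 29.3%) and 110 TE members (0.967%; 17.2%). The largest share held neither mark in any library: 6595 ICM members (60.8%; 33.5%) and 6294 TE members (55.3%; 37.7%). Members with H3K4me3 in both libraries were longer than those with it in neither, with medians of 900 against 400 bp in ICM and 750 against 400 bp in TE.

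**Figure D1:**
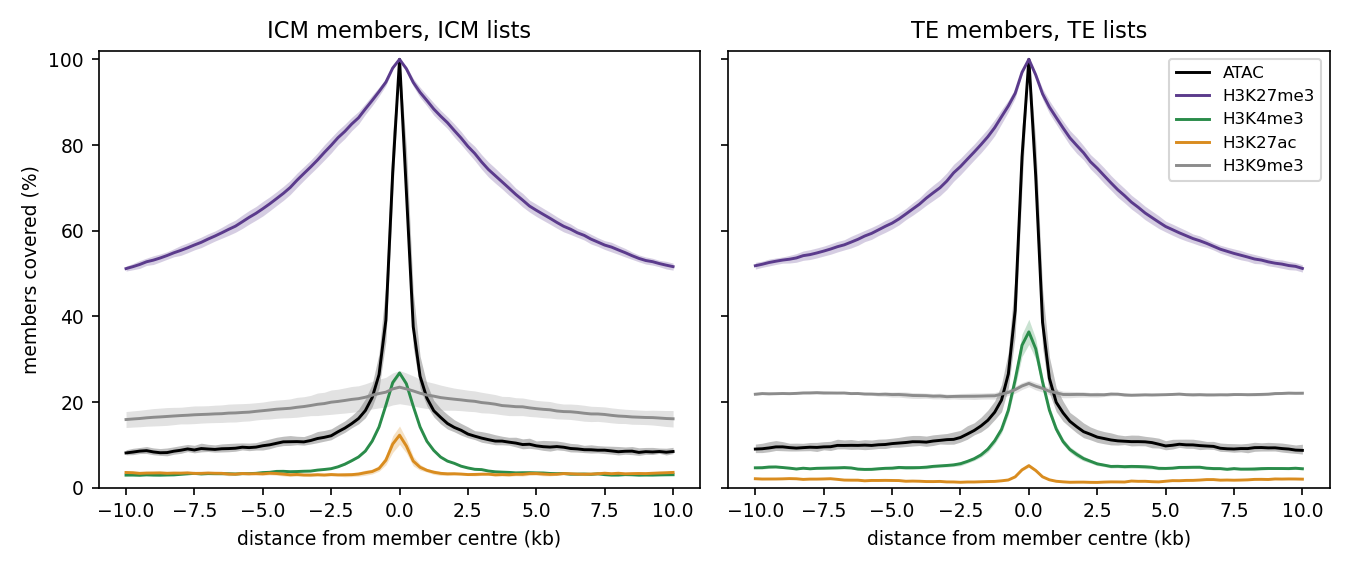
Percentage of ICM members (left) and TE members (right) covered by peaks of their own lineage, against distance from the member's centre in kb; lines are means over libraries and bands run from the lowest to the highest library. H3K4me3 and H3K27ac form narrow peaks on the centre, H3K27me3 declines from 100% at the centre, which the rule set, to 51.6% (ICM) and 51.2% (TE) at 10 kb, and H3K9me3 is 23.5% at the ICM centres and 16.1% at 10 kb, against 24.4 and 22.1% in TE.

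The active marks were concentrated on the open site within the domain, as the profile around the member centres shows. H3K4me3 covered 26.8% of ICM member centres, 10.9% of positions 1 kb away and 3.49% of those 5 kb away; in TE the values were 36.4, 13.7 and 4.53%. Counted by base, H3K4me3 lay on 38.2% ± 0.709 (SD, n = 2) of the bases of ICM members but on 0.126% ± 0.0184 (SD, n = 2) of domain bases that no ICM ATAC list covered. The same pair was 45.1% ± 4.37 and 0.246% ± 0.0236 (SD, n = 2) in TE. These closed domain bases were counted over all domains of the lineage, with or without a member. H3K27ac lay on 15.5% ± 3.76 (SD, n = 2) of ICM member bases and 6.16% ± 0.532 (SD, n = 2) of TE member bases, and on 0.0524 and 0.0228% of the closed domain bases. H3K9me3 had the opposite order in both lineages. It lay on 18.7 and 26.1% of member bases against 25.9 and 33.0% of closed domain bases in the ICM libraries, whose lists covered 96.6 and 128 Mb, and on 22.8% ± 0.989 against 49.2% ± 0.480 (SD, n = 2) in TE.

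H3K9me3, the heterochromatin mark, was also more frequent at members than in open chromatin at large. It was held by 1865 ICM members in both libraries (17.2%), where 4.17% of all open stretches were, and by 2203 TE members (19.4%), where 3.44% were. Members with H3K9me3 in both libraries lay in long domains. Their median domain was 25400 bp in ICM and 20400 bp in TE, and they lay a median of 5500 and 4150 bp from its edge. All members lay a median of 2300 and 1650 bp from it. A longer domain allows a longer distance, and distances of this subset were not scaled to domain length. H3K9me3 and H3K4me3 were both held in both libraries by 228 ICM members (2.10%; 0.419% of all open stretches) and 448 TE members (3.94%; 0.666%).

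A domain here is a run of bases under H3K27me3 in both libraries of a lineage. The median domain around a member was 12800 bp in ICM and 10700 bp in TE, against 7200 and 5600 bp for all domains. A long domain offers more bases to be open, and weighting every domain by its length gave medians of 15400 and 12600 bp, above those around members. Members lay in 5873 of 19116 ICM domains (30.7%) and in 6655 of 27440 TE domains (24.3%). Many shared a domain: 67.9% of ICM members and 63.0% of TE members did, with up to 24 and 22 in one. Joining domains less than 3 kb apart gave medians around a member of 19.6 kb in ICM and 19.2 kb in TE.

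Domain length went with what the members held. The share of domains with a member was 14.3% below 2 kb and 54.4% at 20 kb or more in ICM, and 14.2 and 53.2% in TE, while members per Mb of domain were 126 and 41.8 in ICM and 118 and 40.4 in TE at these lengths. H3K4me3 was held by 37.7% ± 0.701 (SD, n = 2) of ICM members in domains of 2 to 5 kb and by 20.2% ± 0.894 (SD, n = 2) in those of 20 kb or more. The TE values were 41.8% ± 3.39 and 31.2% ± 4.36 (SD, n = 2). Over these lengths H3K9me3 had the opposite order, at 10.0% ± 4.65 and 38.7% ± 4.88 (SD, n = 2) in ICM and 9.32% ± 0.198 and 42.2% ± 1.52 (SD, n = 2) in TE. Domains below 2 kb did not continue this order in ICM, where their 83 members held H3K4me3 in 30.7% ± 0.852 and H3K9me3 in 28.9% ± 5.11 (SD, n = 2). In TE their 275 members had 45.1% ± 6.17 and 13.8% ± 0.514 (SD, n = 2). Domain length comes from the H3K27me3 lists that chose the members, so these values are a description.

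**Figure D2:**
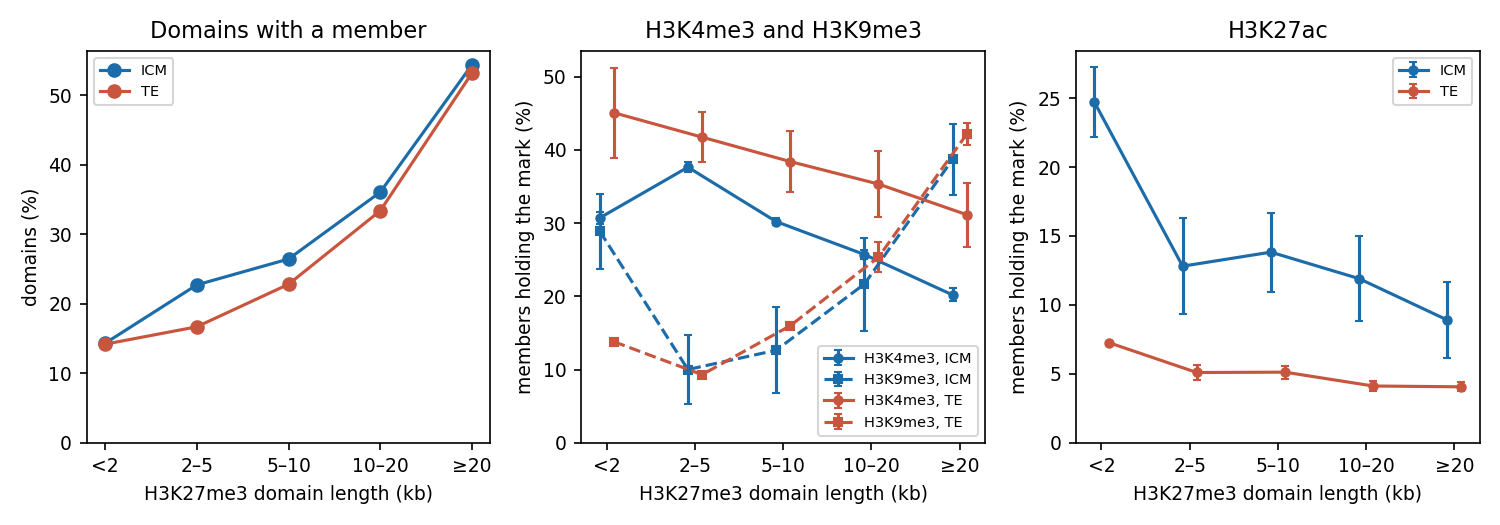
Left, percentage of H3K27me3 domains that hold a member; middle and right, percentage of members that hold H3K4me3, H3K9me3 or H3K27ac, by domain length in kb. Points are means of 2 libraries with SD as error bars, in ICM (blue) and TE (red); longer domains more often hold a member, and from 2 kb upward their members hold H3K4me3 less and H3K9me3 more often, while ICM members below 2 kb do not follow that order.

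Most members were interior. The open stretch lay wholly inside the domain for 89.6% of ICM members and 85.4% of TE members, with medians of 2300 and 1650 bp from the member to the nearer edge. H3K27ac was more frequent at the domain edge. The members that reached it, 1359 in ICM and 2008 in TE, held H3K27ac in 31.6% ± 6.09 and 12.1% ± 1.83 (SD, n = 2) of cases. Members 1 kb or more from the edge held it in 7.67% ± 2.32 and 2.67% ± 0.0728 (SD, n = 2). For 1128 ICM and 1662 TE members the open stretch crossed the edge, so the member was only its part inside the domain. H3K27ac at these parts was not set apart from that at edge members wholly inside. The 816 ICM members with H3K27ac in both libraries lay a median of 350 bp from the edge, against 2550 bp for those without it. The longest domain, chr16:75107401-75336000 in ICM (228600 bp), included chr16:75115751-75116950 (1200 bp), which H3K4me3 covered in full in both ICM and both TE libraries and which H3K27ac covered in neither lineage. It also included chr16:75128351-75128800 (450 bp), an ICM-only locus with H3K4me3 in 8 libraries, all from GV to 8A, where the other two covered 44.4 and 11.1% of it, and with H3K9me3 in both libraries of BL, ICM and TE.

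The single-lineage loci differed in what they were in the other lineage. Of the 5106 ICM-only loci, 2931 (57.4%; 14.9% of all open stretches of ICM) held H3K27me3 in both TE libraries and 1558 (30.5%; 60.0%) were open in all 3 TE ATAC libraries. Of the 5458 TE-only loci, 1937 (35.5%; 12.7% of all open stretches of TE) held H3K27me3 in both ICM libraries and 2858 (52.4%; 64.5%) were open in all 3 ICM ATAC libraries. The most frequent single state of ICM-only loci in TE was closed and under H3K27me3, with no ATAC library and both H3K27me3 libraries (1582, 31.0%; 3.38% of all open stretches of ICM). For TE-only loci in ICM it was open without H3K27me3, with all ATAC libraries and no H3K27me3 library (2038, 37.3%; 54.1% of all open stretches of TE). For ICM-only loci that state had 1115 (21.8%; 49.4% of all open stretches of ICM). Closed and under H3K27me3 in ICM were 930 TE-only loci (17.0%; 2.22%). A further 1309 ICM-only loci (25.6%; 2.85%) and 952 TE-only loci (17.4%; 2.10%) held H3K27me3 in both libraries and were open in 1 or 2 of the other lineage's ATAC libraries. Neither feature was present in any library there at 307 ICM-only loci (6.01%; 19.5%) and 216 TE-only loci (3.96%; 17.1%). The rule used these lists, so the counts are a description. H3K27me3 lists were longer in TE (268 and 278 Mb) than in ICM (246 Mb in each), which moves with this asymmetry; its part was not tested.

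**Figure D3:**
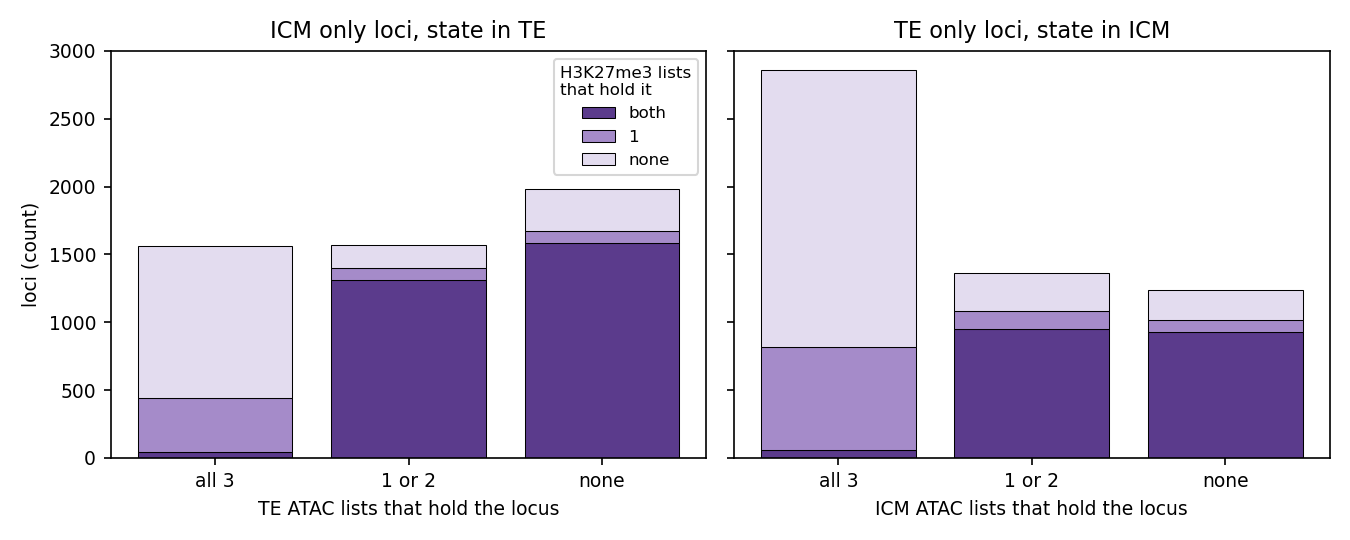
Number of ICM-only loci by their state in TE (left) and of TE-only loci by their state in ICM (right): bars group loci by how many ATAC lists of the other lineage hold them, and shades show how many of its H3K27me3 lists do. Most ICM-only loci that are closed in TE hold H3K27me3 there (1582 of 1979), and most TE-only loci that are open in ICM hold none there (2038 of 2858).

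H3K27ac, which the rule did not use, was lower in the lineage with H3K27me3 at the loci that were open in both lineages. At the 1115 ICM-only loci that were open without H3K27me3 in TE, H3K27ac was held by 29.1 and 21.5% in the ICM libraries and by 47.5 and 50.4% in the TE libraries. At the 2038 TE-only loci that were open without H3K27me3 in ICM, it was held by 44.8 and 35.5% in the ICM libraries and by 3.73 and 4.42% in the TE libraries. In both sets the lineage without H3K27me3 was the higher one, with no overlap between libraries. All open stretches had 44.5% in TE and 55.9% in ICM. The H3K27ac lists of TE were shorter (57.5 and 60.3 Mb) than those of ICM (98.2 and 91.3 Mb), which moves with the TE-only set and against the ICM-only set; the part of list length was not tested. H3K4me3 had no such common pattern, with 29.4 and 30.3% in ICM against 49.1 and 44.8% in TE at the ICM-only set. At the TE-only set H3K4me3 was held by 36.0 and 36.1% in ICM and 37.8 and 33.2% in TE, and these ranges overlapped.

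By class, H3K27ac in both ICM libraries and in no TE library was found at 674 TE-only loci (12.3%) and 191 ICM-only loci (3.74%), against 16.1% of all stretches open in either lineage. The reverse, both TE and no ICM library, was found at 262 ICM-only loci (5.13%) and 83 TE-only loci (1.52%), against 6.19%. For H3K4me3, 229 ICM-only (4.48%) and 222 TE-only loci (4.07%) held it in both TE and no ICM library, near the 4.00% of all such stretches. Examples of single-lineage loci with active marks elsewhere were chr7:24262051-24265400 (3350 bp, TE only), with H3K27ac over 98.5 and 94.0% in ICM and 34.3 and 0% in TE. Another was chr12:86243951-86246950 (3000 bp, ICM only), where H3K4me3 covered 0% in both ICM libraries and 95.0 and 68.3% in TE, while H3K27ac covered all of it in both lineages.

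Loci that were closed under H3K27me3 in the other lineage seldom held H3K4me3 or H3K27ac in either lineage. What H3K27ac they held was mainly in the lineage where they were open. The 1582 ICM-only loci of this kind held H3K4me3 in 4.65% ± 0.134 (ICM) and 3.16% ± 0.447 (TE) (SD, n = 2), and the 930 TE-only loci in 1.67% ± 0.380 and 9.89% ± 2.13 (SD, n = 2). H3K27ac was held by 7.87% ± 2.10 (ICM) and 0.126% ± 0.179 (TE) (SD, n = 2) of the ICM-only loci, and by 0.538% (both ICM libraries) and 10.5% ± 0.988 (TE; SD, n = 2) of the TE-only loci. The TE value was above that of all TE members (4.63% ± 0.416) and of the TE-only loci open without H3K27me3 in ICM (4.07% ± 0.486; SD, n = 2). These loci were chosen as closed under H3K27me3 in the other lineage. H3K27ac lay on 0.0524% (ICM) and 0.0228% (TE) of closed domain bases. Where open, 75 ICM-only (4.74%) and 60 TE-only loci (6.45%) held it in both libraries, against 50.3 and 38.8% of all open stretches. H3K9me3 was frequent at these loci, as it was in closed domain bases. In TE it was held by 56.3% ± 0.715 (SD, n = 2) of the ICM-only and 44.2% ± 1.37 (SD, n = 2) of the TE-only loci, and lay on 49.2% of closed domain bases. In ICM it was held by 31.4% ± 7.29 and 34.1% ± 5.47 (SD, n = 2), and lay on 29.5% of closed domain bases.

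**Figure D4:**
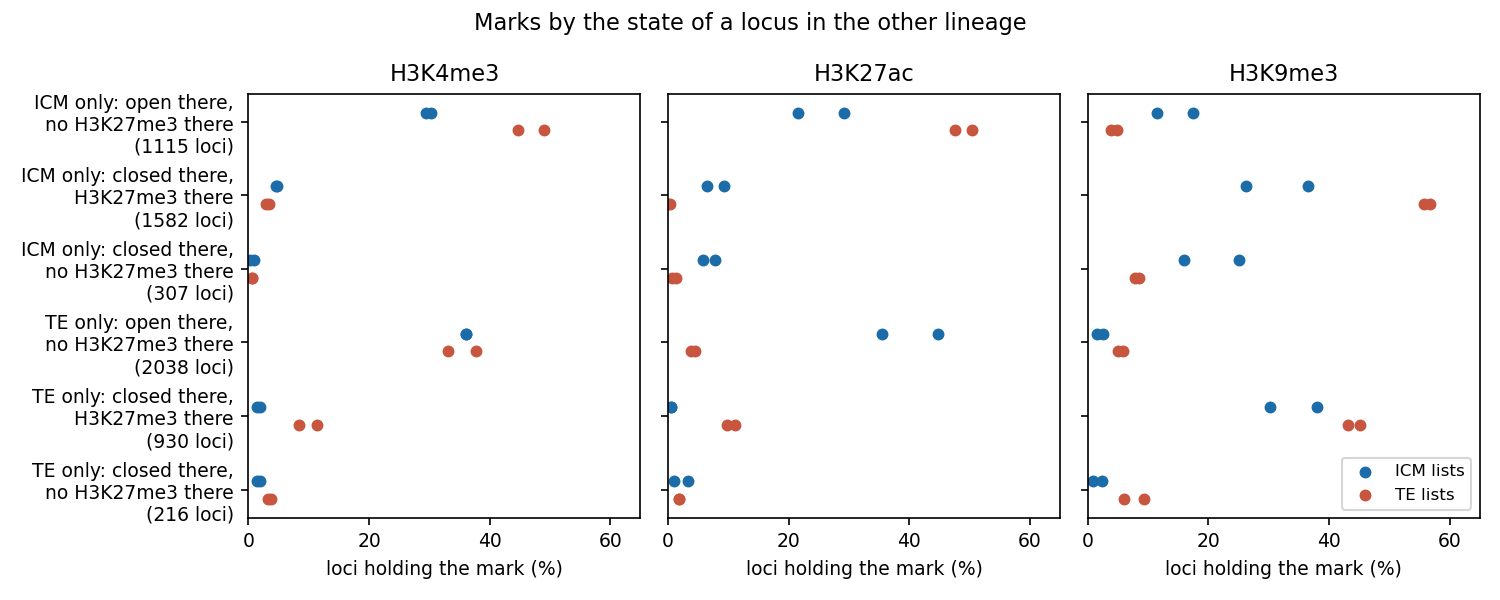
Percentage of single-lineage loci that hold H3K4me3, H3K27ac or H3K9me3 in the ICM lists (blue) and TE lists (red), by their state in the other lineage; each point is a library. At loci open in both lineages H3K27ac is higher where H3K27me3 is not (about 21.5 to 29.1% against 47.5 to 50.4%, and 3.73 to 4.42% against 35.5 to 44.8%), and loci closed under H3K27me3 in the other lineage hold little H3K4me3.

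Whether open chromatin lay less under the H3K27me3 of its own lineage than under that of the other was tested on the whole lists, not on the members. The rule chose the members from these same lists, so the test is not independent of that choice. ICM ATAC peaks lay under ICM H3K27me3 with 12.8 to 13.6% of their length and under TE H3K27me3 with 15.9 to 16.5%, over 6 pairs of libraries each. TE ATAC peaks lay under TE H3K27me3 with 13.3 to 14.7% and under ICM H3K27me3 with 13.3 to 14.2%. Own minus other lineage was therefore -1.40 percentage points (exact two-sided permutation test of the lineage labels, p = 0.0333 over 120 arrangements, the smallest p they can give). ICM had means of 13.2% (own) and 16.3% (other), and TE had 14.1 and 13.8%. The TE H3K27me3 lists were longer (268 and 278 Mb against 246 Mb in each ICM library), which can raise the other-lineage value of ICM and the own-lineage value of TE, so these means do not place the difference in either lineage. Without any one of the ICM ATAC libraries the difference was -1.06 to -1.07 points and the exact permutation p was 0.133. With labels exchanged only within a replicate number, the exact permutation p was 0.125, the smallest that this exchange can give.

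Before the blastocyst, the members stood out by H3K4me3. In GV it was held by 72.0 and 76.6% of ICM members, in 2C by 72.5 and 71.0%, in 4C by 69.3 and 72.1% and in 8C by 61.5 and 72.9%. All open stretches of ICM had 36.2% (GV), 33.5% (2C), 33.3% (4C) and 32.4% (8C). From GV to 8C every library was thus higher at the members, and by MO the values were 38.6 and 39.8% against 30.5%. TE members had 73.1 and 76.7% in GV and 41.1 and 42.1% in MO.

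H3K4me3 was held in every library of GV, 2C, 4C and 8C by 5039 ICM members (46.5%; 18.0% of all open stretches) and 5466 TE members (48.0%; 19.4%). Of all ICM members, 2588 (23.9%) held it throughout these stages and in no ICM library, against 5.08% of all open stretches. The TE count was 1942 (17.1%), against 3.66%. These early values did not cover the domains in full. In 2C, H3K4me3 lay on 74.0% ± 0.652 of ICM member bases, 23.9% ± 0.566 of the closed domain bases and 38.2% ± 0.0480 (SD, n = 2) of open bases outside H3K27me3. In MO the closed domain bases were at 0.579% ± 0.0396 (SD, n = 2) and the member bases at 50.5% ± 1.24 (SD, n = 2).

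The early H3K4me3 lists were longer, from 68.6 to 176 Mb in GV to 8C against 37.7 to 46.7 Mb in ICM and TE, and the shorter 8C list gave the lower 8C value. With each list shortened by score to 37.7 Mb, ICM members held H3K4me3 in 38.1% ± 0.548 in 2C and 26.1% ± 0.163 in ICM (SD, n = 2), where all open stretches had 13.4 and 25.0%. The excess of members over other open sites in early embryos was thus present at equal covered length. The early to late difference among members was smaller there: 71.7 against 26.7% in the full lists. The loci of both lineages were the highest class, with 83.6% in 2C and 36.7% in ICM. ICM-only loci had 58.2 and 14.5%, and TE-only loci had 62.0 and 20.2% at the same points.

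H3K27me3 at the members was not continuous from the oocyte. It was held by 49.1 and 55.7% of ICM members in GV, by 6.85 to 11.9% in the libraries of 2C, 4C and 8C, by 65.2 and 66.4% in MO and by 90.0 and 90.5% in BL. In cleavage this was near the share among all open stretches, of which 5.81% (2C) and 8.29% (8C) held it in both libraries, against 635 (5.86%) and 1011 (9.32%) of the members. The sequence of both GV libraries, no library of 2C, 4C or 8C, and both MO libraries was met by 2938 ICM members (27.1%; 3.77% of all open stretches) and 2599 TE members (22.8%; 3.87%). A further 1815 ICM members (16.7%; 65.7%) and 2411 TE members (21.2%; 64.2%) had it in no library from GV to MO. The rule chose members by H3K27me3, and the closed bases of all ICM domains, most of which had no member, followed a similar course. H3K27me3 lay on 49.1% of closed domain bases of ICM in GV, 13.5% in 2C, 17.0% in 8C, 55.3% in MO and 88.4% in BL. ICM member bases had 52.9, 7.13, 11.2, 67.4 and 90.4%. The TE-only class had less H3K27me3 in MO, with 36.5% ± 1.23, than the ICM-only class, with 59.3% ± 0.679 (SD, n = 2). H3K9me3 was held by 5.75% ± 0.183 of ICM members in GV, below the 12.8% ± 0.0686 (SD, n = 2) of all open stretches, and by 32.1% ± 6.08 in BL, above their 7.05% ± 1.54 (SD, n = 2). Closed domain bases of ICM likewise had more H3K9me3 in BL (36.6%) than in GV (7.21%).

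**Figure D5:**
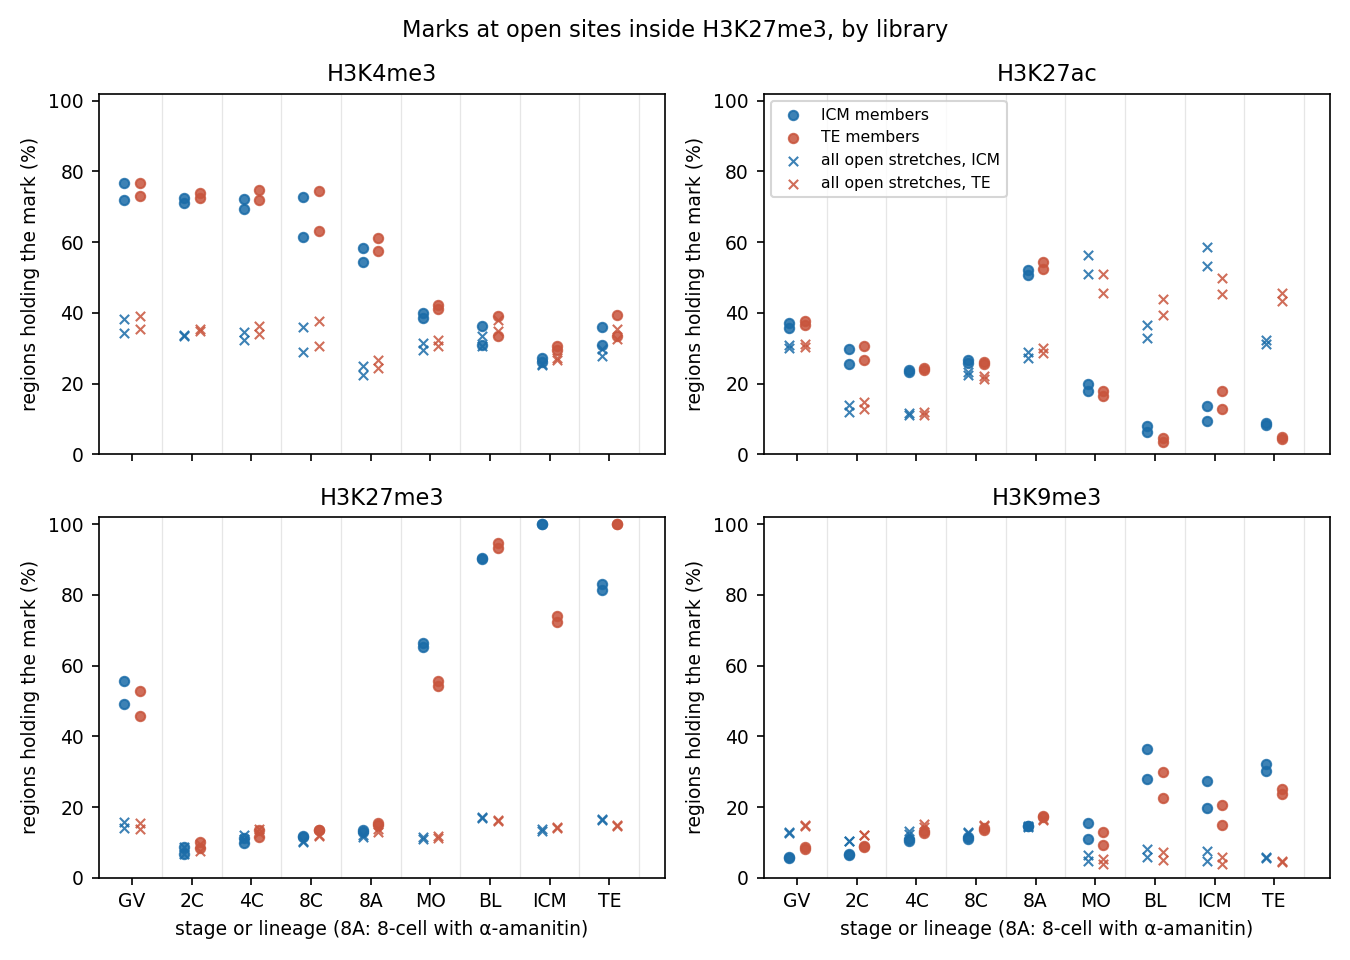
Percentage of ICM members (blue dots), TE members (red dots) and all open stretches of each lineage (crosses) that hold each mark, by stage; each symbol is 1 library. Members are above all open stretches for H3K4me3 up to MO and for H3K27ac from 2C to 8A, and below them for H3K27ac from MO on. H3K27me3 in ICM for ICM members and in TE for TE members is 100% by the rule.

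With transcription blocked, the 8-cell embryo had H3K27ac at many more members. In 8C it was held by 26.7 and 25.7% of ICM members and in 8A by 52.2 and 50.7%, so that the libraries of the groups did not overlap. TE members had 26.2 and 25.5% in 8C and 54.3 and 52.4% in 8A. All open stretches of ICM differed less, with 22.8% ± 0.482 and 28.2% ± 1.15 (SD, n = 2). H3K27ac in both 8A libraries and no 8C library was found at 2191 ICM members (20.2%; 7.86% of all open stretches), and the reverse at 207 (1.91%; 4.33%). The TE counts were 2425 (21.3%; 8.40%) and 150 (1.32%; 3.27%).

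The 8A lists for H3K27ac were somewhat longer, at 97.7 and 101 Mb against 89.7 and 90.5 Mb in 8C. With both shortened by score to 89.7 Mb, 8A exceeded 8C by 22.8 points at ICM members, against 25.2 points in the full lists, or 13.6 points where every base had to be covered. With each list shortened to 43.4 Mb, the shortest H3K27ac list of any stage, the difference was 16.5 points. ICM members then had 33.1% ± 0.946 in 8A and 16.6% ± 0.0261 (SD, n = 2) in 8C, and all open stretches had 15.4 and 13.7%. Of the 2191 ICM members with H3K27ac in both 8A and no 8C library, 1994 (91.0%) held H3K4me3 in both 4C libraries. In these 4C libraries 402 (18.3%) held H3K27ac. Among all open stretches of ICM with H3K27ac in both 8A and no 8C library these shares were 74.5 and 15.1%. The closed domain bases of ICM had 4.64% ± 0.137 in 8C and 12.9% ± 0.0540 (SD, n = 2) in 8A. The loci of both lineages had the highest 8A value, 62.0% ± 0.832 against 30.7% ± 0.650 (SD, n = 2) in 8C.

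After the 8-cell stage H3K27ac was rarer at the members than in open chromatin at large. In MO it was held by 18.9% ± 1.33 of ICM members and 53.6% ± 3.69 (SD, n = 2) of all open stretches of ICM, and in BL by 7.15% ± 1.21 and 34.7% ± 2.50 (SD, n = 2). In 4C the members had been the higher set, at 23.2 and 23.9% against 11.0 and 11.6%. At chr5:55698001-55700800 (2800 bp, TE only), H3K27ac covered 83.9 and 96.4% in 8A and 0% in both 8C libraries. Later it covered 89.3 and 60.7% of that locus in ICM and 0% in both TE libraries, while H3K4me3 held it in all 18 libraries. H3K27me3 covered 100% of the locus in ICM library 1 and 0% in ICM library 2.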

How the data were processed

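The authors called peaks library by library and deposited a score for each peak, a whole number of unknown meaning that served here only to rank peaks within a list. The submitters' processing notes name BWA 0.7.9a, SICER and the build ARS-UCD1.2, while the lists are named for epic2. Cutoffs and sequencing depth were not known, so values carry no counting interval. Peak edges lie on a 50 bp grid (ATAC, H3K4me3, H3K27ac) or a 200 bp grid (H3K27me3, H3K9me3).

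Members, loci, domains and coverage were computed on 50 bp steps in Python 3.11.15 with NumPy 2.4.6, and the code was tested on simulated lists. Members that only abut (10 cases) stayed apart. Named loci were drawn from the longest of each class, those in the longest domains and the longest with H3K4me3 and H3K27ac in both libraries. The single test exchanged lineage labels among the ATAC and among the H3K27me3 libraries. Alternatives changed the length minimum, the coverage that counts as held, the score cutoff, the ATAC lists required, how domains were joined and the libraries used. Members, lists and tests were chosen with earlier results of these data known. Genes and sequences were not analysed here.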

Additional observations from a re-analysis of the deposited data

How the results depend on the processing

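None of the alternatives counted here reversed a result. Shortening the lists for marks in the members' own lineage was not among them. It gave H3K4me3 at 26.1% (ICM) and 23.2% (TE) of members and H3K27ac at 1.31 and 1.88%. The order of the lineages was then the opposite of that in the full lists. In 165 cases a value stayed within the spread between libraries, a count within 1.5 times or the test on its side of the threshold, in 46 a value moved by more than the spread, and in 4 the test no longer passed. Counts had no spread to be judged by: a minimum of 400 bp gave 7315 ICM and 8059 TE members and 3443 ICM-only, 4114 TE-only and 3742 shared loci, and at least 2 ATAC lists gave 12911 ICM and 13821 TE members. Those 4 concern own minus other lineage (-1.40 points). With a replicate block, exchanging labels only within a number, it was -1.40 with an exact permutation p of 0.125, the smallest possible; leaving out 1 library gave -1.77 to -1.06, with p = 0.133 (exact permutation) without any ICM ATAC library. The labels do not say whether replicate numbers pair the samples, and the deviations of the libraries did not settle it. Same-numbered ATAC libraries of ICM and TE had correlated deviations of 0.0432, 0.147 and 0.0868. Those of other numbers ran from -0.114 to 0.0472, the highest between TE library 1 and ICM library 3. H3K27me3 gave 0.0187 for the same number and -0.0187 for the other. With 2 libraries per lineage the second value mirrors the first by construction and adds nothing.

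Domain length around ICM members was 15.6 kb by single-library peaks, 19.6 kb with gaps under 3 kb joined, 14.6 kb with the upper 75% of H3K27me3 peaks and 12.4 to 16.2 kb leaving out 1 library; TE gave 13.3, 19.2 and 10.8 to 13.4 kb. Requiring all bases to be covered gave H3K4me3 at 14.6% (ICM) and 23.0% (TE) of members in their own lineage, and 49.6 and 52.1% in 2C. It gave H3K27ac at 3.92 and 1.30%, and 8A minus 8C of 13.6 and 15.4 points. Any covered base gave H3K4me3 at 28.7% in ICM and 75.8 and 76.8% in 2C, TE H3K27ac at 7.73%, and 8A minus 8C of 27.5 and 29.3. Lists shortened by score gave 2C values of 38.1 and 39.5% at 37.7 Mb. They gave 8A minus 8C of 22.8 and 24.9 at 89.7 Mb, and of 16.5 and 18.0 at 43.4 Mb, the shortest H3K27ac list. Opening in at least 2 ATAC lists gave H3K4me3 at 20.2 and 28.5% and TE H3K27ac at 3.17%. A minimum of 400 bp gave 34.4 and 42.0%, and H3K27ac at 15.1 and 5.27%. The upper 75% of ATAC peaks gave H3K4me3 at 31.5 and 42.1% and TE H3K27ac at 5.50%, and the upper 75% of H3K27me3 peaks gave ICM H3K4me3 at 26.0%. Leaving out 1 library gave H3K4me3 at 23.9 to 27.1% (ICM) and TE H3K27ac at 4.00 to 5.51%. The cause of these shifts was not tested, and depth could not be set against them. The replicate block, the omission of members held by H3K9me3 throughout, and all alternatives for 2C and for 8A minus 8C were chosen after seeing the data.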
